A study of Mus musculus with 12 samples.

Results

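The insulin-like growth factor (IGF) axis was followed through 10 genes: the ligand Igf1, the receptor Igf1r, the secreted binding proteins Igfbp2 to Igfbp7, and Igf2bp2 and Igf2bp3, which encode proteins that bind Igf2 mRNA. Every probe set carrying one of these symbols in the platform annotation was taken, which gave 23 of the 22626 probe sets tested and covered 9 of the 10 genes. Igfbp4 had 6 probe sets, Igf2bp3 had 4, Igf1 and Igfbp7 had 3 each, Igf1r and Igfbp5 had 2 each, and Igfbp2, Igfbp3 and Igfbp6 had 1 each. Igf2bp2 had none under its symbol and was not analysed here.

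IGF1 binds its receptor on the cell surface and drives growth and survival through the insulin receptor substrates and the PI3K-Akt relay. Most IGF outside cells is held by binding proteins, which limit or prolong its access to the receptor and are cut by proteases that release it. In skin, IGF1 is known chiefly as a product of dermal cells that acts on keratinocytes, the epithelial cells of the epidermis. Of the IGF2 mRNA-binding proteins, IGF2BP3 is known for high levels in the embryo and in tumours and low levels in most adult tissues.

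RNA was measured on 12 Affymetrix mouse arrays, 1 for each sample, and the values are on a log2 scale, so a difference of 1 is a 2-fold change. The study set cultured cells against tissue and newborn against older animals. Keratinocyte cultures came from newborn mice, each a pool of cells from 5 animals of one genotype, held in low-calcium medium for up to 3 days and never passaged. Of these, 2 (replicates 1 and 2) had the mixed C57, DBA and FVB background and 3 (replicates 3 to 5) were FVB. Skin from mice aged 30 days gave 5 samples, all of the mixed background, and skin from newborn mice gave 2 samples, both FVB. No agent or engineered allele is named in the labels for any group. Strain and age therefore coincide within skin and cannot be told apart there. Whether each skin sample was taken from its own animal is not stated in the labels. Some arrays resembled each other closely: cultures 1 and 2, 30-day replicates 2 and 3, 30-day replicates 4 and 5, and both newborn arrays. The SD of the difference over all probe sets was 0.16, 0.17, 0.18 and 0.20 in these pairs. In other pairs within a group it was 0.23 to 0.42. If such pairs are not independent, p-values of every comparison are too small, those against 30-day skin among them. The mixed-strain cultures and newborn skin consist of such a pair alone. Their independence was not tested. The p-values rest on the spread among the arrays at hand, and part of that spread may be technical.

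All 6 basal keratinocyte markers were measured, and the mean of that list lay between 10.49 and 10.92 in the cultures, between 9.48 and 9.70 in 30-day skin and between 9.59 and 9.69 in newborn skin. Several other marker lists, stromal and epithelial, were far dimmer in the cultures, but not the melanocyte or Schwann cell list. The melanocyte list averaged 8.29 to 10.52 in the cultures, 9.84 to 10.40 in 30-day skin and 9.12 to 9.13 in newborn skin, and the Schwann cell list 5.78 to 6.28 in the cultures, 6.14 to 6.38 in 30-day skin and 6.26 to 6.46 in newborn skin. The fibroblast list averaged 5.65 to 6.24 in the cultures, 10.73 to 11.06 in 30-day skin and 11.07 to 11.12 in newborn skin. For the 5 skeletal muscle genes the mean was 5.10 to 5.47 in the cultures, 10.65 to 11.52 in 30-day skin and 11.04 to 11.19 in newborn skin. Replicate 1 of 30-day skin stood apart in RNA quality, with a 3′ minus 5′ gap of 1.74 between the actin probe sets, against 0.67 to 0.82 in the other 4 samples of its group. The 18S ribosomal RNA value of that array was 8.16, against 5.30 to 5.93 in the others. Leaving that array out ended the calls of Igf1r (1426565_at) between ages and of Igfbp7 (1423584_at) against 30-day skin. Such bulk values cannot tell fewer cells of a type from less RNA in each cell.

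**Figure D1:**
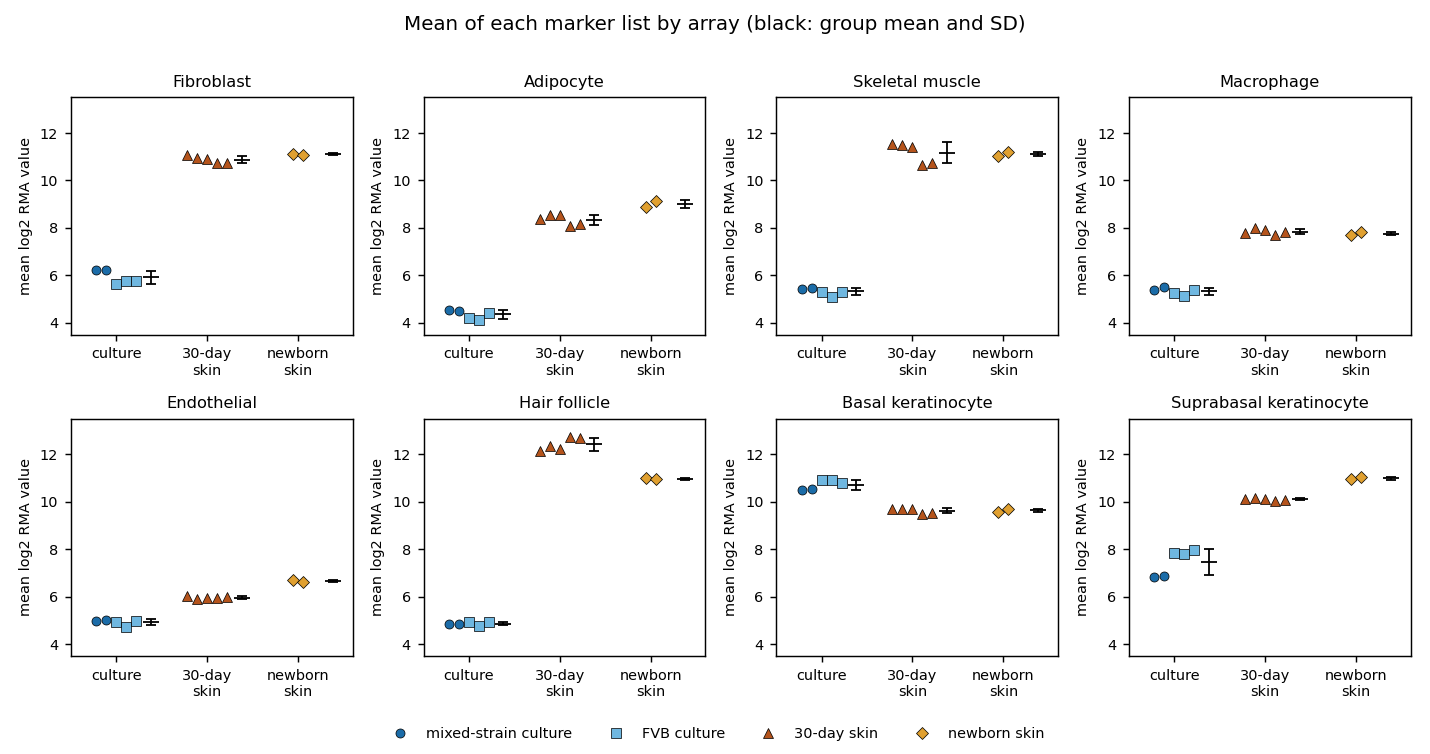
Mean log2 RMA value of 8 marker lists (vertical axis) in each of the 12 arrays, with cultures on the left, 30-day skin in the middle and newborn skin on the right; black marks give each group's mean and SD. Fibroblast, adipocyte, skeletal muscle, macrophage and hair follicle lists are lower in every culture than in any skin array, and the basal keratinocyte list is higher.

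Of the 23 probe sets, 3 were higher and 11 lower in cultures than in newborn skin, and 9 did not pass an adjusted p of 0.05 in limma. Over all 22626 probe sets, 17.6% were called higher and 14.7% lower in that comparison. Against 30-day skin, 7 were higher, 13 lower and 3 not called, where 25.1% of all probe sets were called higher and 18.2% lower. The median log2 difference of the 23 was −0.36 in the first comparison and −0.69 in the second, beside medians of 0.041 and 0.034 over all probe sets. Both comparisons share the cultures. The 11 probe sets lower than in newborn skin belonged to Igf1, Igfbp4, Igfbp5 and Igfbp6, and the 3 higher ones to Igfbp3 and Igf2bp3.

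When arrays were centred on 15 genes of epithelial junctions, the median of all probe sets moved by −0.75 in culture against newborn skin, by −0.38 in culture against 30-day skin and by −0.38 in 30-day against newborn skin. The mean of these 15 genes was itself highest in the cultures, at 9.71 to 9.83, against 9.16 to 9.50 in 30-day skin and 8.98 to 9.04 in newborn skin. Under that centring 1 member probe set was higher and 18 lower in cultures than in newborn skin. Over all 22626 probe sets, 717 were then called higher and 17737 lower. Against 30-day skin, 6 members were higher and 16 lower in the cultures, beside 2386 higher and 12938 lower of all probe sets. Between the ages of skin, 0 members were higher and 14 lower in 30-day skin, beside 407 higher and 9798 lower of all probe sets. For the brightest probe set of each member and for called member probe sets, directions that turn under this centring are named beside their values.

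**Figure D2:**
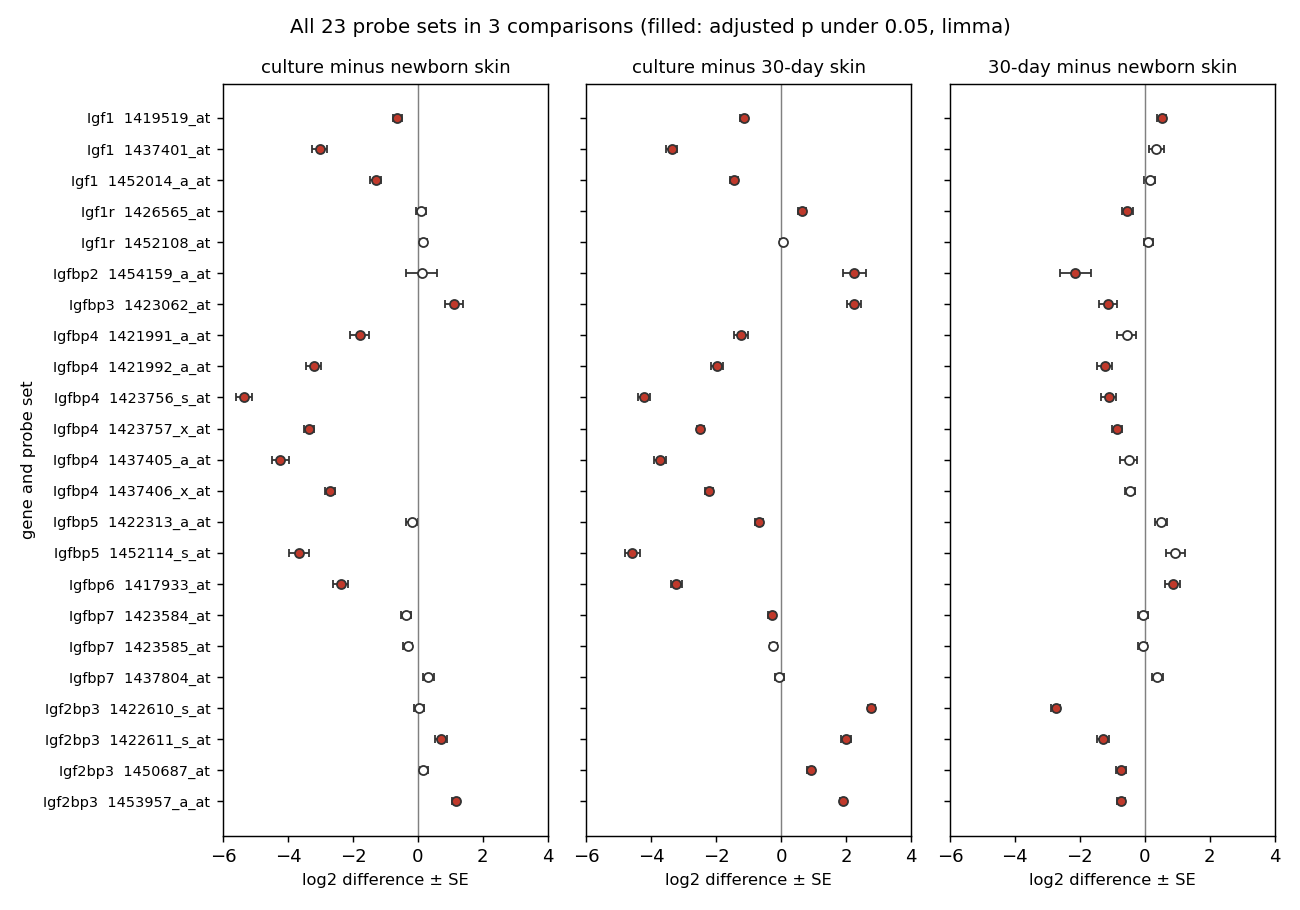
Log2 difference with its standard error (horizontal axis) for the 23 probe sets (1 per row), in cultures minus newborn skin, cultures minus 30-day skin and 30-day minus newborn skin; filled points passed an adjusted p of 0.05 in limma. All 6 Igfbp4 probe sets lie left of 0 in both panels of culture against skin, and all 4 of Igf2bp3 lie left of 0 in 30-day minus newborn skin.

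The start regions of 4 binding-protein genes are shown because these genes cover the range of outcomes in the data: Igfbp2 was higher in cultures than in 30-day skin and differed between strains, Igfbp5 and Igfbp6 were lower in cultures, and Igfbp7 differed little. Igfbp2 and Igfbp5 are next to each other on chromosome 1. Each sequence is the 250 bases before the gene's start in RefSeq (GRCm38.p6), read 5′ to 3′ on the gene's own strand; all 9 measured members had a window in that table. The windows are chr1:72824230-72824479 (plus strand) for Igfbp2, chr1:72874866-72875115 (minus strand) for Igfbp5, chr15:102143936-102144185 (plus strand) for Igfbp6 and chr5:77408046-77408295 (minus strand) for Igfbp7. Capitals mark 3 short motifs searched on both strands: the GC box GGGCGG, the TATA box TATAAA and the E-box CACGTG, which do not overlap each other here.
Igfbp2: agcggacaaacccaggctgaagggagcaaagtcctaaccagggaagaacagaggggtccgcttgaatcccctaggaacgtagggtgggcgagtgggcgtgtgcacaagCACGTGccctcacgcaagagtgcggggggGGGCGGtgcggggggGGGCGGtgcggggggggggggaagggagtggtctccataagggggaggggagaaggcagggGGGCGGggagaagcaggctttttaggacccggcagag
Igfbp5: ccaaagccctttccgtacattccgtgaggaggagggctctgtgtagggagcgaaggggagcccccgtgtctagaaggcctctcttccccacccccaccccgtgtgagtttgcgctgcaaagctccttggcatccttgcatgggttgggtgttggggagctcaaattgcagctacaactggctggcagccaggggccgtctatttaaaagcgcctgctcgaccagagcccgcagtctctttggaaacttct
Igfbp6: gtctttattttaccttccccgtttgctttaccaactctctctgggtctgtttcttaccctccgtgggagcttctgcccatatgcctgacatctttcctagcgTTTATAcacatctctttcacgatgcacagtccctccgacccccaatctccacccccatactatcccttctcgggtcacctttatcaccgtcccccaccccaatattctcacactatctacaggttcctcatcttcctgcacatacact
Igfbp7: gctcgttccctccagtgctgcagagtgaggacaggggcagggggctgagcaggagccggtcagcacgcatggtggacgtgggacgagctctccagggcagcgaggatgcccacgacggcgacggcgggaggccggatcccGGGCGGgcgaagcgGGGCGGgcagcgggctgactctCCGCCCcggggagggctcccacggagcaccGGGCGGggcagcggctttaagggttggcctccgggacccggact
Igfbp2 held 3 GC boxes and 1 E-box, Igfbp7 held 4 GC boxes, Igfbp6 held 1 TATA box and Igfbp5 held none of the 3 motifs in this window. The Igfbp6 match began 148 bases before the start and was the reverse complement of the motif. Igfbp4, not shown, held a TATA box beginning 28 bases before its start. Igfbp2 had a second window, also not shown, with none of the 3 motifs. Among 32851 mouse promoter windows of the same length, 32.7% held a GC box, 12.4% a TATA box and 6.0% an E-box. The GC content was 67.2% for Igfbp2, 58.8% for Igfbp5, 49.6% for Igfbp6 and 74.0% for Igfbp7. The matches describe letters only.

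Igf1, the ligand, was lower in cultures than in either skin. Probe set 1437401_at read 4.46 and 4.72 in the mixed-strain cultures and 4.55, 4.70 and 4.62 in the FVB cultures, against 8.65, 8.19, 7.90, 7.50 and 7.67 in 30-day skin and 7.73 and 7.53 in newborn skin. Every culture was below its array's median and below all 7 skin samples, and the ranges of the 2 skin groups overlapped. In limma the log2 difference of cultures from newborn skin was −3.02 ± 0.23 (SE; adjusted p = 2.58e-07). From 30-day skin it was −3.37 ± 0.17 (SE; limma adjusted p = 2.81e-09). The other 2 Igf1 probe sets moved the same way by smaller amounts, −0.63 and −1.30 relative to newborn skin, −1.16 and −1.45 relative to 30-day skin, and all 4 values passed.

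Between the 2 ages of skin the Igf1 probe sets did not give one answer. Only 1419519_at was called, at 6.17, 5.88, 5.95, 5.91 and 6.04 in 30-day skin against 5.45 and 5.48 in newborn skin. Its log2 difference was 0.53 ± 0.14 (SE; limma adjusted p = 0.0278), and this call was lost when strain was a covariate (0.26, adjusted p = 0.4868). It was also lost when either newborn array was left out, with an adjusted p of 0.1779 without replicate 1 and 0.1767 without replicate 2. For 1437401_at the difference was 0.36 ± 0.23 (SE; limma adjusted p = 0.3811). It was 0.19 without 30-day replicate 1 (adjusted p = 0.5133). When arrays were centred on the epithelial junction genes it turned to −0.022, and the call of 1419519_at was lost (0.15, adjusted p = 0.4902).

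Igf1r encodes the receptor kinase for IGF1 and IGF2. Probe set 1426565_at read 7.21 and 7.38 in the mixed-strain cultures and 6.95, 7.31 and 7.63 in the FVB cultures, against 6.40, 6.71, 6.65, 6.70 and 6.85 in 30-day skin and 7.26 and 7.13 in newborn skin. All cultures lay above all 30-day samples, and newborn skin lay inside the range of the cultures. Cultures exceeded 30-day skin by 0.63 ± 0.12 log2 units (SE; limma adjusted p = 0.000641), which became 0.26 with an adjusted p of 0.0620 when arrays were centred on the epithelial junction genes. The difference from newborn skin was 0.10 ± 0.16 (SE; limma adjusted p = 0.7006) and turned to −0.65 under that centring.

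Skin from 30-day mice was below newborn skin on this Igf1r probe set by −0.53 ± 0.16 log2 units (SE; limma adjusted p = 0.0434). The adjusted p lay between 0.0505 and 0.2731 when 1 array was left out, apart from culture replicates 3 and 5 and 30-day replicate 5, without which the call stayed. Without 30-day replicate 1 the difference was −0.47 (adjusted p = 0.0561). With strain as a covariate it was −0.53 and not called (adjusted p = 0.2185), and after quantile normalisation its adjusted p was 0.0546. The second Igf1r probe set, 1452108_at, ranged from 5.52 to 5.79 in cultures, 5.29 to 5.72 in 30-day skin and 5.42 to 5.53 in newborn skin, and was called in no comparison. The ligand and its receptor therefore differed in opposite directions between cultures and 30-day skin on their brighter probe sets.

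Igfbp2 was the only member called between strains in culture, though 7 member probe sets were called when limma weighted the arrays. The share called over all probe sets was not counted for the weighted fit. The single Igfbp2 probe set read 8.28 and 8.38 in the mixed-strain cultures against 9.97, 10.004 and 10.22 in the FVB cultures. The values did not overlap, and the log2 difference of mixed-strain from FVB cultures was −1.74 ± 0.23 (SE; limma adjusted p = 0.000478), a 3.33-fold lower level. Over all probe sets 3.91% were called higher and 5.3% lower in mixed-strain than in FVB cultures in the unweighted fit. The other 22 member probe sets differed by −0.50 to 0.65 log2 units, with adjusted p between 0.0607 and 0.9914 in limma.

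Skin values of Igfbp2 were 6.81, 7.56, 7.54, 6.81 and 6.89 in 30-day skin and 9.13 and 9.39 in newborn skin. In order of level, FVB cultures were highest, then newborn skin (also FVB), then mixed-strain cultures, then 30-day skin (also mixed), and no 2 neighbours in this order overlapped. Against 30-day skin the 5 cultures were higher by 2.25 ± 0.36 log2 units (SE; limma adjusted p = 0.000181). With the 2 mixed-strain cultures alone, which share their background with that skin, the difference was 1.21 ± 0.23 (SE; limma adjusted p = 0.0017).

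Against newborn skin the 5 cultures differed in Igfbp2 by 0.11 ± 0.48 log2 units (SE; limma adjusted p = 0.8998), with mixed-strain values below and FVB values above both skin arrays. With arrays centred on the epithelial junction genes this difference turned to −0.64 (limma adjusted p = 0.1781). The 3 FVB cultures alone were higher than newborn skin by 0.81 ± 0.24 (SE; limma adjusted p = 0.0189). Within skin, 30-day samples were lower than newborn samples by −2.14 ± 0.48 log2 units (SE; limma adjusted p = 0.0108). With the strain difference of the cultures applied to skin as a covariate, that value was −0.40 ± 0.31 (SE; limma adjusted p = 0.5236). Without newborn replicate 1 its adjusted p was 0.0753 and without newborn replicate 2 it was 0.1348, where the lone newborn array is assumed to vary like the other groups.

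Other measures also separated the cultures by strain. The melanocyte list averaged 10.52 and 10.44 in the mixed-strain cultures, against 8.46, 8.29 and 8.30 in the FVB cultures, a wider gap than that of Igfbp2. The mean of the 4 suprabasal keratinocyte markers was 6.84 and 6.87 in the mixed-strain cultures, against 7.86, 7.78 and 7.98 in the FVB cultures. The basal list averaged 10.49 and 10.52 in the mixed-strain cultures, against 10.90, 10.92 and 10.79 in the FVB cultures. The fibroblast list averaged 6.21 and 6.24 in the mixed-strain cultures, against 5.65, 5.75 and 5.76 in the FVB cultures. The actin 3′ minus 5′ gap was 0.21 and 0.35 in the mixed-strain cultures, against 0.56, 0.74 and 0.61 in the FVB cultures. Their part in the Igfbp2 difference was not tested.

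Igfbp3, which encodes a major IGF carrier of the circulation and is known in human epidermis as a product of basal keratinocytes, was higher in cultures than in either skin. It read 9.23 and 9.21 in the mixed-strain cultures and 8.72, 8.87 and 9.13 in the FVB cultures, against 6.98, 7.26, 7.29, 6.19 and 6.26 in 30-day skin and 7.98 and 7.87 in newborn skin. The 3 groups did not overlap, with cultures highest and 30-day skin lowest. Cultures were above 30-day skin by 2.24 ± 0.21 log2 units (SE; limma adjusted p = 1.2e-06) and above newborn skin by 1.11 ± 0.28 (SE; limma adjusted p = 0.0070). The second of these was 0.35 (adjusted p = 0.2391) when arrays were centred on the epithelial junction genes, and 1.06 (adjusted p = 0.0691) without newborn replicate 2.

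Samples of 30-day skin fell into 2 levels for Igfbp3, with replicates 1 to 3 at 6.98 to 7.29 and replicates 4 and 5 at 6.19 and 6.26. The mean of the skeletal muscle list was 11.52, 11.51 and 11.41 in replicates 1 to 3 and 10.65 and 10.72 in replicates 4 and 5, and that of the mast cell list 6.86, 6.88 and 6.85 against 6.33 and 6.36. Several other lists split too, among them the adipocyte list at 8.36, 8.55 and 8.56 against 8.07 and 8.18. The hair follicle list split the other way, at 12.14, 12.33 and 12.21 against 12.74 and 12.71. The link of any list to Igfbp3 was not tested. Skin of 30 days lay below newborn skin in Igfbp3 by −1.13 ± 0.28 log2 units (SE; limma adjusted p = 0.0178). The adjusted p was 0.1445 without newborn replicate 1 and 0.1292 without newborn replicate 2.

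Igfbp4, a binding protein that generally restrains IGF action and is cut by the protease Pappa, was lower in cultures than in each skin group on all 6 of its probe sets. Probe set 1423756_s_at read 5.59 and 5.94 in the mixed-strain cultures and 4.79, 5.42 and 5.30 in the FVB cultures, against 9.50, 9.98, 9.87, 9.43 and 9.40 in 30-day skin and 10.71 and 10.80 in newborn skin. The groups did not overlap, and 4 of the 5 cultures were below their array's median. The log2 difference from newborn skin was −5.35 ± 0.24 (SE; limma adjusted p = 1.66e-09). The files hold no detection call, so the culture level was not shown to be above background and no fold is given. From 30-day skin it was −4.23 ± 0.18 (SE; limma adjusted p = 4.85e-10).

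The brightest Igfbp4 probe set, 1437405_a_at, read 6.73 and 7.23 in the mixed-strain cultures and 6.21, 6.75 and 6.04 in the FVB cultures, against 10.29, 10.59, 10.36, 10.24 and 10.17 in 30-day skin and 11.07 and 10.58 in newborn skin. Cultures were apart from both skins, whereas the 2 skin groups touched at 10.59 and 10.58. Over the 6 probe sets the log2 difference ran from −5.35 to −1.79 relative to newborn skin, and from −4.23 to −1.23 relative to 30-day skin. The smallest in both comparisons was that of 1421991_a_at, where cultures ranged from 5.37 to 6.01, 30-day skin from 6.10 to 7.44 and newborn skin from 7.20 to 7.74. In Affymetrix naming the endings a, s and x mark probe sets shared by several transcripts or open to cross-hybridisation, so their sizes may mix transcripts.

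Between the ages of skin, 3 of the 6 Igfbp4 probe sets were lower in 30-day skin: 1421992_a_at by −1.23 ± 0.23, 1423756_s_at by −1.12 ± 0.24 and 1423757_x_at by −0.86 ± 0.15 log2 units (SE; limma adjusted p = 0.0032, 0.0086 and 0.0018). For 1423757_x_at the 30-day values were 9.39, 9.64, 9.72, 9.33 and 9.33, all below the newborn values of 10.33 and 10.36. The brightest probe set gave −0.50 ± 0.25 (SE; limma adjusted p = 0.2507). With strain as a covariate it gave −1.15 (adjusted p = 0.0268), and without newborn replicate 2 the calls of 1421992_a_at and 1423756_s_at were lost (adjusted p = 0.0813 and 0.1099). The call of 1423756_s_at was also lost without newborn replicate 1 (adjusted p = 0.0702).

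**Figure D3:**
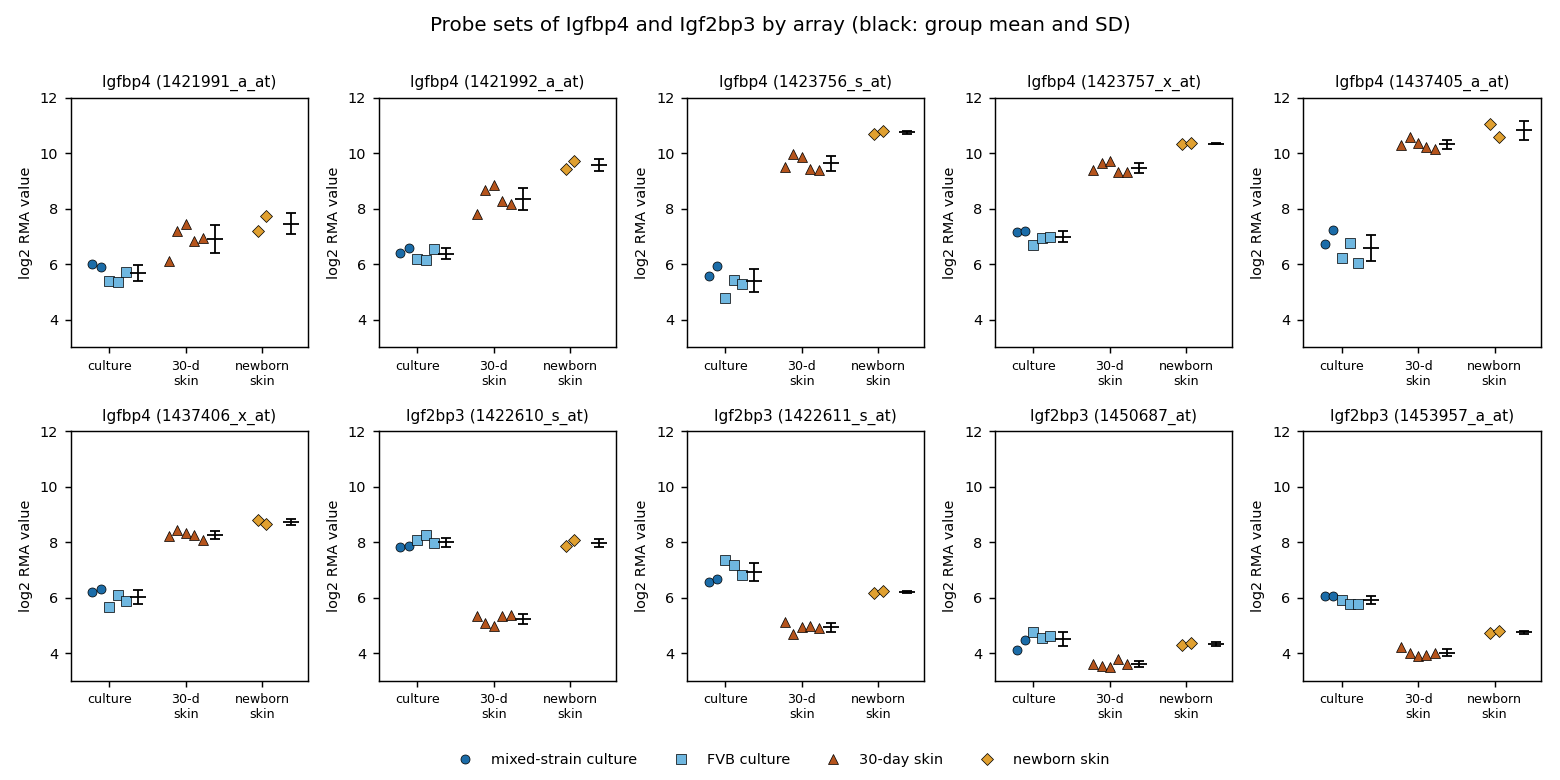
Log2 RMA value (vertical axis) of the 6 probe sets of Igfbp4 and the 4 of Igf2bp3 in each of the 12 arrays, with cultures left, 30-day skin in the middle and newborn skin right; black marks give group means and SDs. For Igfbp4 the cultures are the lowest group on every probe set, and for Igf2bp3 30-day skin is the lowest group on every probe set.

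Igfbp5, encoded beside Igfbp2 and known for its abundance in muscle and connective tissue, was lower in cultures than in 30-day skin, where its neighbour was higher. Against newborn skin Igfbp2 was not called over the 5 cultures. Probe set 1452114_s_at read 4.89 and 5.08 in the mixed-strain cultures and 4.35, 4.70 and 4.71 in the FVB cultures, against 10.07, 9.58, 9.55, 8.90 and 8.62 in 30-day skin and 8.40 in both newborn samples. The 3 groups did not overlap, and all 5 cultures were below their array's median, a level not shown to be above background. Within 30-day skin, replicates 1 to 3 lay above replicates 4 and 5, as they did for the skeletal muscle list and several others. The hair follicle list ran the other way. Cultures differed from 30-day skin by −4.59 ± 0.23 log2 units (SE; limma adjusted p = 2.05e-09) and from newborn skin by −3.65 ± 0.30 (SE; limma adjusted p = 6.12e-07).

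The difference of 0.94 ± 0.30 between 30-day and newborn skin in Igfbp5 missed the threshold (SE; limma adjusted p = 0.0618). It passed under several settings, among them the mean of both probe sets, with 0.72 ± 0.18 (SE; limma adjusted p = 0.0131), but was 0.54 with strain as a covariate (adjusted p = 0.5365) and 0.56 under the epithelial centring (adjusted p = 0.1478). Probe set 1422313_a_at gave a much smaller difference from 30-day skin, −0.69 ± 0.13 (SE; limma adjusted p = 0.000809), with values from 5.63 to 6.18 in cultures and from 6.18 to 6.84 in 30-day skin, so that the groups met at 6.18. Newborn skin lay at 6.15 and 6.005, inside the range of the cultures, on that probe set. The 2 probe sets of this gene thus differed in size of change by several log2 units, and which transcripts each one reads was not tested.

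Igfbp6, a binding protein that prefers IGF2 to IGF1, was lower in cultures than in either skin. It read 5.51 and 5.51 in the mixed-strain cultures and 5.38, 5.22 and 5.81 in the FVB cultures, against 7.99, 8.89, 9.03, 8.86 and 8.85 in 30-day skin and 7.93 and 7.80 in newborn skin. Cultures lay more than 1 log2 unit below every skin sample, all 30-day samples lay above newborn skin, and replicate 1 of 30-day skin came closest to it. The log2 difference of cultures was −3.24 ± 0.17 from 30-day skin (SE; limma adjusted p = 4.32e-09) and −2.38 ± 0.23 from newborn skin (SE; limma adjusted p = 2.66e-06). Skin of 30 days exceeded newborn skin by 0.85 ± 0.23 (SE; limma adjusted p = 0.0276). That value was 1.04 (adjusted p = 0.000287) without replicate 1 of 30-day skin, and the call was lost without any one of 30-day replicates 2 to 5 (adjusted p = 0.0529 to 0.0550). It was 0.81 (adjusted p = 0.1856) with strain as a covariate and 0.48 (adjusted p = 0.0555) with arrays centred on the epithelial junction genes. It was 0.92 (adjusted p = 0.1301) without newborn replicate 1 and 0.79 (adjusted p = 0.2346) without newborn replicate 2.

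Igfbp7, a secreted relative of the binding proteins with low affinity for IGFs, differed from either skin by −0.36 to 0.32 log2 units on its 3 probe sets. Probe set 1423584_at read 9.50 and 9.84 in the mixed-strain cultures and 9.34, 9.37 and 9.38 in the FVB cultures, against 9.78, 9.94, 9.96, 9.53 and 9.74 in 30-day skin and 9.76 and 9.93 in newborn skin. The cultures overlapped both skin groups through mixed-strain replicate 2. A difference of −0.30 ± 0.11 log2 units from 30-day skin passed narrowly (SE; limma adjusted p = 0.0460), and it was lost with any 1 array left out other than culture replicate 2 or 30-day replicate 4 (adjusted p = 0.0564 to 0.1097). It was −0.12 with the mixed-strain cultures alone (adjusted p = 0.5905) and with strain as a covariate (adjusted p = 0.5615), and −0.22 with arrays centred on their median (adjusted p = 0.1256). From newborn skin the difference was −0.36 ± 0.15 (SE; limma adjusted p = 0.0861), and it became −0.48 ± 0.14 with the FVB cultures alone (SE; limma adjusted p = 0.0156). The other 2 Igfbp7 probe sets, 1423585_at and 1437804_at, were called in no comparison.

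The falls in Igf1, Igfbp4, Igfbp5 and Igfbp6 in the cultures went together with lower levels of stromal, muscle, hair follicle and suprabasal keratinocyte marker lists. Basal keratinocyte markers went the other way, with 4 of 6 genes higher and 0 lower in cultures than in each skin group in limma. All 7 fibroblast, 4 adipocyte, 5 skeletal muscle, 5 endothelial and 5 macrophage genes measured were lower in cultures than in each skin group in limma. The median log2 difference of these lists against newborn skin ran from −5.82 for muscle to −1.82 for endothelium. All 4 hair follicle and all 4 suprabasal keratinocyte genes were also lower in cultures than in each skin, with a median for hair follicle of −6.25 relative to newborn skin and −7.60 relative to 30-day skin, and for suprabasal keratinocytes of −4.20 relative to newborn skin and −2.72 relative to 30-day skin. In the cultures 2 of the 7 fibroblast genes, all 4 adipocyte genes and all 5 endothelial genes stayed below their array's median throughout. The part of cell makeup in the member differences was not tested.

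**Figure D4:**
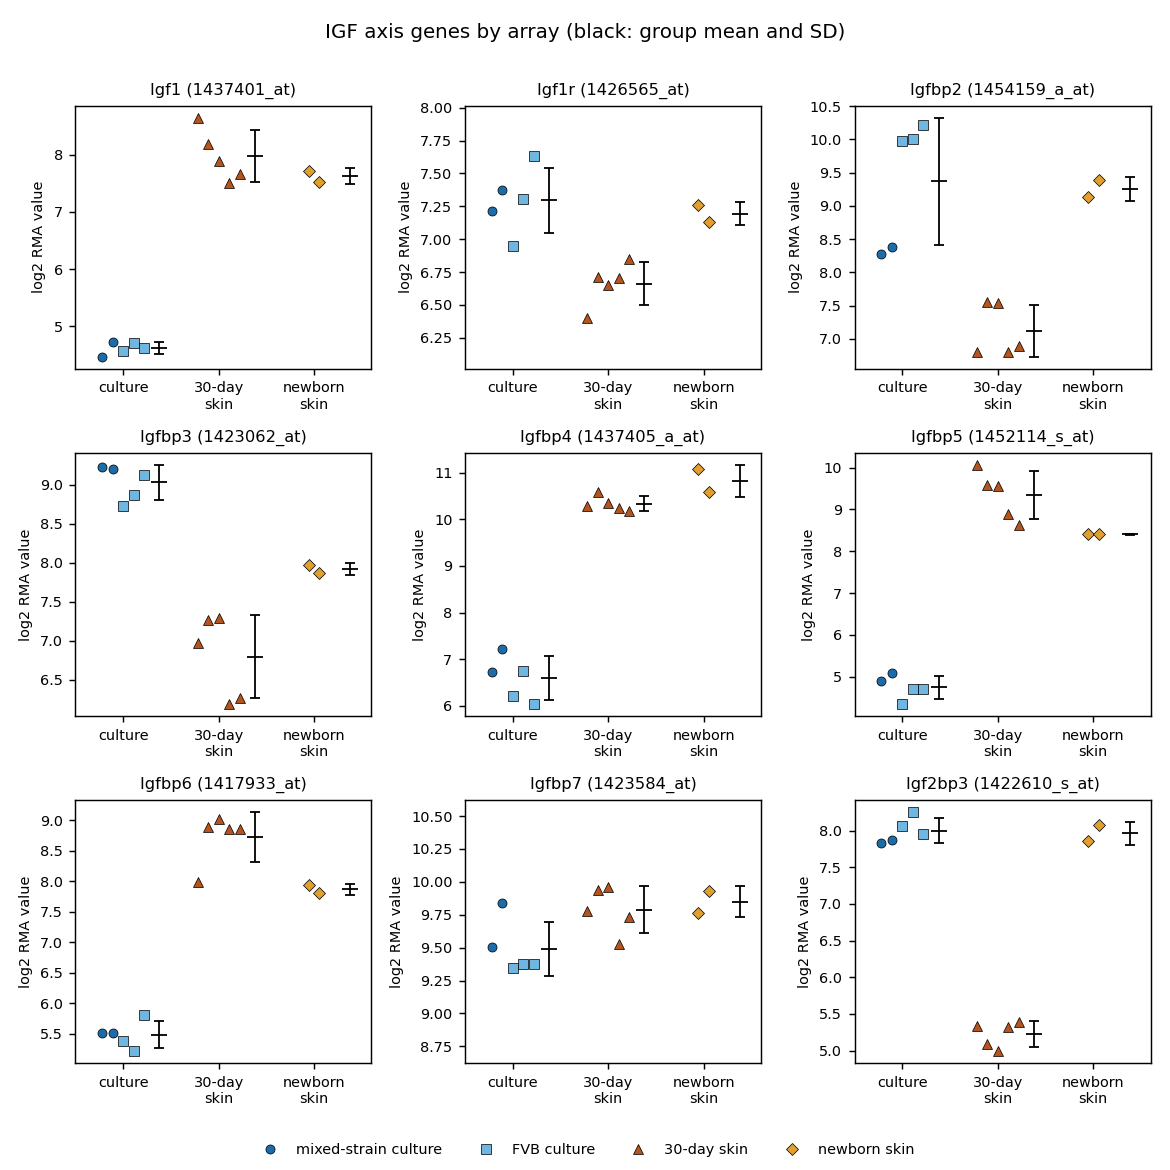
Log2 RMA value (vertical axis) of the brightest probe set of each of the 9 measured members in the 12 arrays, with cultures left (mixed-strain circles, FVB squares), 30-day skin in the middle and newborn skin right; black marks give group means and SDs, and each panel has its own axis. Igf1, Igfbp4, Igfbp5 and Igfbp6 are lower in every culture than in any skin array, Igfbp3 is higher, and Igfbp2 shows 2 levels among the cultures.

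Igf2bp3 encodes an RNA-binding protein of the embryo that binds Igf2 mRNA. On its brightest probe set, 1422610_s_at, cultures read 7.84 and 7.87 (mixed strain) and 8.07, 8.26 and 7.96 (FVB), against 5.33, 5.09, 4.99, 5.33 and 5.39 in 30-day skin and 7.86 and 8.07 in newborn skin. Cultures and newborn skin covered the same range, and 30-day skin was below its arrays' medians in all 5 samples. Cultures exceeded 30-day skin by 2.77 ± 0.11 log2 units (SE; limma adjusted p = 1.49e-10), with no fold given because the 30-day level was not shown to be above background. The difference from newborn skin was 0.035 ± 0.14 (SE; limma adjusted p = 0.8931) and turned to −0.72 when arrays were centred on the epithelial junction genes.

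The other Igf2bp3 probe sets separated cultures from newborn skin to different degrees. Probe set 1453957_a_at read 6.05 and 6.06 in the mixed-strain cultures and 5.90, 5.77 and 5.77 in the FVB cultures, against 4.22, 3.99, 3.91, 3.95 and 3.99 in 30-day skin and 4.71 and 4.79 in newborn skin. Here the groups did not overlap, and cultures exceeded newborn skin by 1.16 ± 0.12 log2 units (SE; limma adjusted p = 4.22e-06). For 1422611_s_at cultures ranged from 6.57 to 7.35 against 6.18 and 6.23 in newborn skin, a difference of 0.72 ± 0.19 (SE; limma adjusted p = 0.0090). That call was lost without either newborn array (adjusted p = 0.0791 and 0.0578) and the difference turned to −0.039 under the epithelial centring. For 1450687_at, which lay below the array median in all 12 arrays, cultures ranged from 4.11 to 4.75 and newborn skin read 4.28 and 4.38.

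All 4 Igf2bp3 probe sets were higher in cultures than in 30-day skin, by 0.90 to 2.77 log2 units, and all 4 were lower in 30-day than in newborn skin. The largest difference with age was −2.74 ± 0.14 for 1422610_s_at (SE; limma adjusted p = 4.04e-08). The others were −1.27 ± 0.19 for 1422611_s_at, −0.73 ± 0.15 for 1450687_at and −0.74 ± 0.12 for 1453957_a_at (SE; limma adjusted p = 0.00059, 0.0050 and 0.0011). With strain as a covariate 3 of these 4 calls remained and that of 1450687_at was lost (adjusted p = 0.2264). Without 30-day replicate 1 the value of 1453957_a_at was −0.79 (adjusted p = 0.000341). The call of 1450687_at was also lost without newborn replicate 2 (adjusted p = 0.0883).

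Across the ages of skin, 2 of the 23 probe sets were higher in 30-day than in newborn skin, 10 were lower and 11 were not called. Over all probe sets 4.75% were called higher and 7.36% lower, and the median log2 difference was −0.50 for the members and 0.00 for all. The 2 higher ones belonged to Igf1 and Igfbp6, and the 10 lower ones to Igf1r, Igf2bp3, Igfbp2, Igfbp3 and Igfbp4. Leaving out newborn replicate 1 left 6 calls and leaving out newborn replicate 2 left 4, since newborn skin then rested on 1 array. With strain as a covariate 0 were higher and 9 lower.

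Of 40 further genes of the pathway, 34 were measured, each by its brightest probe set. Against newborn skin 4 were higher and 10 lower in cultures, where 17.3% of all 12393 genes were called higher and 18.1% lower. Against 30-day skin 9 were higher and 11 lower, where 26.1% of all genes were called higher and 21.4% lower. In 30-day against newborn skin 1 was higher and 6 lower, beside 5.46% and 8.91% of all genes. The median log2 difference of the 34 was −0.09, −0.05 and −0.13 in these comparisons, and that of all genes 0.01, 0.02 and −0.01.

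Among the ligands, Igf2 averaged 7.43 ± 0.12 in cultures (SD, n = 5), 7.04 ± 0.30 in 30-day skin (SD, n = 5) and 11.91 ± 0.03 in newborn skin (SD, n = 2). Cultures and 30-day skin were both more than 4 log2 units below newborn skin, with differences of −4.48 ± 0.17 and −4.87 ± 0.17 (SE; limma adjusted p = 2.45e-10 and 5.47e-10). Cultures exceeded 30-day skin in Igf2 by 0.40 ± 0.13 log2 units (SE; limma adjusted p = 0.0206), a call that was lost in several other fits. It was 0.020 when arrays were centred on the epithelial junction genes (adjusted p = 0.9075), 0.32 after quantile normalisation (adjusted p = 0.0542), 0.35 with strain as a covariate (adjusted p = 0.1215) and 0.35 with same-strain cultures alone (adjusted p = 0.1514). It also passed the threshold neither without culture replicate 4 or 30-day replicate 4 (adjusted p = 0.0537 and 0.0544) nor with closely similar arrays averaged (adjusted p = 0.128). Igf2bp1, a relative of Igf2bp3, was higher in cultures by 0.86 ± 0.12 than in newborn skin and by 1.10 ± 0.09 than in 30-day skin (SE; limma adjusted p = 7.59e-05 and 3.23e-07). Igf2bp1 differed by −0.24 ± 0.12 between 30-day and newborn skin (SE; limma adjusted p = 0.2375).

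In the list of fetal regulators, 2 of 3 measured genes were higher in cultures than in each skin. The chromatin protein gene Hmga2, which activates Igf2bp2 in mouse muscle precursors, led them at 1.54 ± 0.22 over newborn skin and 2.32 ± 0.16 over 30-day skin (SE; limma adjusted p = 8.32e-05 and 7.19e-08). It was lower in 30-day than in newborn skin by −0.77 ± 0.22 (SE; limma adjusted p = 0.0332), which was lost without either newborn array or any one of 30-day replicates 2 to 5 (adjusted p = 0.0514 to 0.2412) and with closely similar arrays averaged (adjusted p = 0.372). Among the 3 other receptors measured, only Igf2r, which clears IGF2 from the cell surface, was called, at 1.07 ± 0.19 over newborn skin and 1.05 ± 0.14 over 30-day skin (SE; limma adjusted p = 0.000645 and 4.54e-05). When arrays were centred on the epithelial junction genes, the difference from newborn skin was 0.31 (adjusted p = 0.1996) for Igf2r and 0.11 (adjusted p = 0.4970) for Igf2bp1, and Igf2bp1 was then lower in 30-day than in newborn skin by −0.62 (adjusted p = 0.0043). The insulin receptor gene Insr gave 0.064 ± 0.17 and 0.058 ± 0.13 in the same comparisons and 0.0064 ± 0.17 between the ages of skin, none of them called. With the arrays centred on the epithelial junction genes, Insr was lower in cultures than in newborn skin by −0.69 (adjusted p = 0.0032). The median of all probe sets moved by −0.75 in that comparison. Insr averaged 5.50 in cultures and 5.44 in newborn skin, below the array medians of 5.86 to 6.01. Under that centring Insr turned to −0.32 in cultures minus 30-day skin and to −0.37 in 30-day minus newborn skin (limma adjusted p = 0.0567 and 0.1047).

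Of the 4 measured genes for binding-protein proteases and their inhibitors, Htra1, a secreted protease that degrades several IGF binding proteins, was higher in cultures. It averaged 11.73 ± 0.11 in cultures (SD, n = 5), 8.89 ± 0.15 in 30-day skin (SD, n = 5) and 9.74 ± 0.20 in newborn skin (SD, n = 2). The log2 difference was 2.84 ± 0.09 from 30-day skin and 1.996 ± 0.13 from newborn skin (SE; limma adjusted p = 3.48e-11 and 3.83e-08). Pappa and Stc1, an inhibitor of Pappa, were the 2 called lower against each skin, and Stc2 was higher than in 30-day skin by 0.40 ± 0.14 (SE; limma adjusted p = 0.0285). The 3 other binding proteins listed (Igfbp1, Igfals and Igfbpl1) were called in none of the 3 comparisons.

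Downstream of the receptor, 2 of 6 adaptor genes were lower in cultures than in newborn skin, Irs1 and Grb10, and 0 were higher. Against 30-day skin 3 were lower, these and Grb14, and 1 was higher, Shc1 at 0.30 ± 0.11 (SE; limma adjusted p = 0.0423). Grb10, an imprinted inhibitor of insulin and IGF signalling, differed by −3.33 ± 0.30 from newborn skin and by −1.33 ± 0.22 from 30-day skin (SE; limma adjusted p = 1.16e-06 and 0.000253). It was also lower in 30-day than in newborn skin, by −2.01 ± 0.30 (SE; limma adjusted p = 0.000611). Grb10 was split by strain among the cultures, at 7.08 and 6.996 in mixed-strain and 5.89, 5.955 and 6.13 in FVB cultures. The mixed-strain cultures thus lay nearer to 30-day skin, which shares their background and averaged 7.74. Of 8 genes of the PI3K-Akt relay, 1 was lower and 0 higher in cultures than in newborn skin, and 2 were lower and 2 higher than in 30-day skin. The gene lower than in both skins was Foxo1, a transcription factor held out of the nucleus by Akt, at −1.15 ± 0.15 from newborn skin and −1.34 ± 0.12 from 30-day skin (SE; limma adjusted p = 5.12e-05 and 5.07e-07). Its relative Foxo3 was lower than in 30-day skin by −0.87 ± 0.13 (SE; limma adjusted p = 8.61e-05). The kinase gene Akt1 exceeded 30-day skin by 0.57 ± 0.10 and Eif4ebp1, an inhibitor of translation, by 0.92 ± 0.16 (SE; limma adjusted p = 0.000293 and 0.000267). Akt1 was lower in 30-day than in newborn skin by −0.76 ± 0.13 (SE; limma adjusted p = 0.0019), and the call was lost with strain as a covariate (−0.61, adjusted p = 0.0615) and with closely similar arrays averaged (−0.74, adjusted p = 0.1205).

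In the growth hormone arm, which drives Igf1 in liver and other tissues, 4 of 5 genes were lower in cultures than in each skin and 0 were higher. The growth hormone receptor gene Ghr differed by −2.37 ± 0.17 from newborn skin and by −2.22 ± 0.13 from 30-day skin (SE; limma adjusted p = 1.7e-07 and 1.18e-08). Socs2, a feedback inhibitor of that receptor, was lower in 30-day than in newborn skin by −0.80 ± 0.12 (SE; limma adjusted p = 0.000802). With closely similar arrays averaged, which leaves 1 newborn array, this difference was −0.79. Socs2 averaged 5.33 in 30-day skin, below the array medians of 5.86 to 6.01, a level not shown to be above background.

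**Figure D5:**
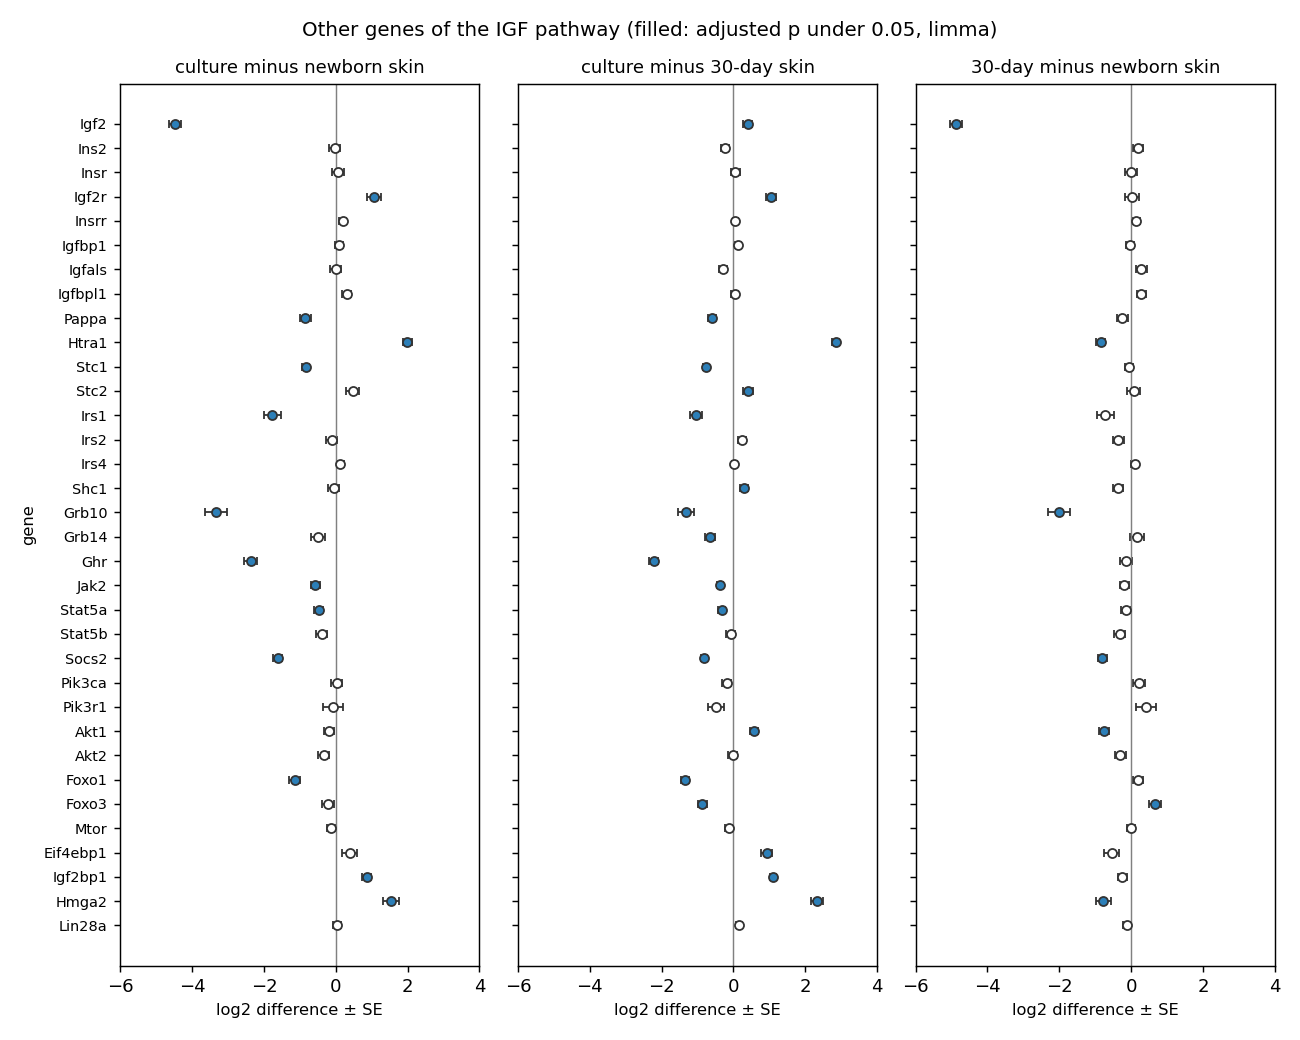
Log2 difference with its standard error (horizontal axis) for the 34 measured genes of the IGF pathway outside the members (1 per row, brightest probe set), in cultures minus newborn skin, cultures minus 30-day skin and 30-day minus newborn skin; filled points passed an adjusted p of 0.05 in limma. Igf2 lies below −4 in both comparisons with newborn skin and near 0 in cultures minus 30-day skin.

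The genes most like each member over the 12 arrays are given as a description, since 3 groups of arrays set most of each correlation. Igf1 ran closest to Fcer1g (Pearson r = 0.997), Tnmd (0.994) and Steap4 (0.993), and among the members to Igfbp5 (0.992). Igfbp4 ran closest to Lrp1 (0.995), Mylk (0.991) and Ak3 (0.990), and Igfbp6 to C1qb (0.996), Crym (0.995) and Cited4 (0.995). Igfbp5 ran closest to Cox6a2, Atp2a1 and Casq1 (0.993 each), of which the last 2 are calcium-handling genes of skeletal muscle.

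The members that were higher in cultures than in 30-day skin had other neighbours. Igf2bp3 ran closest to Spats2l (0.989), Cdc6 (0.989) and Cdc16 (0.984). Igfbp2 ran closest to Exo1 (0.980), Topbp1 (0.979) and Polr2d (0.970), and Igfbp3 to Bub3 (0.984), Clic1 (0.979) and Morc4 (0.978). Igf2bp3 and Igfbp2 were each other's closest member, with r = 0.883. Lower values were found for Igf1r, led by Stat3 (0.927), Anapc2 (0.923) and Coro1b (0.921), and for Igfbp7, led by Ehbp1l1 (0.913), Trpv2 (0.897) and Pla2g15 (0.892).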

How the data were processed

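The deposited table holds log2 expression values of 12 arrays, made by RMA per the submitters' processing notes, which name no version of it. Values ran from 2.89 to 13.59, with array medians of 5.86 to 6.01. There is no detection call, precision is set by how many arrays each group has, and RMA's quantile step assumes like distributions in culture and skin. Of 22690 probe sets, 64 controls were left out. In the platform annotation 20380 probe sets had 1 gene symbol, 691 had several and 1555 had none; 20351 matched the RefSeq gene table by gene identifier.

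Tests were two-sided and used lmFit and eBayes of limma 3.58.1 (R 4.3.3) in 1 fit with a mean for each group, and for strain in a fit with separate means for the 2 kinds of culture. Adjusted p-values are Benjamini-Hochberg values over all 22626 probe sets, with a threshold of 0.05. Fits were tested on simulated arrays. Errors of differences are standard errors.

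All member probe sets are described. Pathway genes, markers and likeness used the probe set with the highest mean, which gave 12393 genes; 6 of 40 pathway genes had none and were not analysed here. Named pathway genes were the called gene with the largest change per list and comparison, plus Igf2, Insr and Igf2bp1; Pappa, Stc1, Stc2, Irs1, Grb14, Shc1, Foxo3 and Eif4ebp1 were named after their values were seen. The members and lists were chosen with earlier results of these data known. Alternatives covered normalisation, centring, dim probe sets, probe set rules, thresholds, variance model, array weights, strain, the replicate number as a block and leaving out each array. Averaging arrays that resembled each other most was chosen after seeing the data. Figures used Python 3.11.15 and matplotlib 3.10.9.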

Additional observations from a re-analysis of the deposited data

Results flagged for a closer look

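Among 46 sets of 5 arrays (23 probe sets in cultures and in 30-day skin), 2 held an array far from the other 4 by Dixon's test, where chance gives about 1 in 20. Both were replicate 1 of 30-day skin, the array with the larger actin 3′ minus 5′ gap. For Igfbp6 it read 7.99, below the other 4 samples at 8.85 to 9.03. For Igf2bp3 (1453957_a_at) it read 4.22, above the other 4 at 3.91 to 3.99. The part of RNA quality in these values was not tested.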

How the results depend on the processing

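Values for single genes changed direction in 21 of 1066 combinations of result and alternative and in 15 of 972 with an array left out. Their calls were lost in 75 and gained in 15 of the first, and lost in 47 and gained in 3 of the second. When arrays were centred on the epithelial junction genes, cultures minus newborn skin turned to −0.65 for Igf1r (1426565_at), −0.72 and −0.039 for Igf2bp3 (1422610_s_at and 1422611_s_at), −0.64 for Igfbp2 and −0.69 for Insr. Under that centring cultures minus 30-day skin turned to −0.32 for Insr, and 30-day minus newborn skin turned to −0.022 for Igf1 (1437401_at) and −0.37 for Insr. Igf2bp3 (1422610_s_at) in cultures minus newborn skin was −0.014 after a further quantile normalisation, −0.0102 with array weights and −0.0446 with the replicate block. Igfbp2 in the same comparison was −0.18 with array weights and −0.38 with the replicate block. Igfbp7 (1423584_at) in 30-day minus newborn skin was 0.013 after quantile normalisation and 0.069 with the replicate block. Insr was −0.11 in cultures minus newborn skin with same-strain cultures and with strain as a covariate. In 30-day minus newborn skin Insr was −0.0301 after quantile normalisation, −0.014 with median centring, −0.42 with strain as a covariate and −0.0176 with close arrays averaged. With 1 array left out, cultures minus newborn skin ran from −0.0731 to 0.14 for Igf2bp3 (1422610_s_at), from −0.10 to 0.39 for Igfbp2 and from −0.10 to 0.23 for Insr. Insr ran from −0.0165 to 0.15 in cultures minus 30-day skin and from −0.16 to 0.18 in 30-day minus newborn skin, where Igfbp7 (1423584_at) ran from −0.14 to 0.0235. None of the values that turned was called except those of Igf1r (1426565_at), Igf2bp3 (1422610_s_at) and Insr under the epithelial centring against newborn skin, and the value of Igf2bp3 (1422611_s_at) before it.

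Counts of called member probe sets fell by construction with 1 value for each gene. Taking the brightest probe set gave 5 against newborn skin, 9 against 30-day skin and 6 between ages, and the mean of all probe sets gave 6, 9 and 6. Between ages, 12 calls became 7 at an adjusted p under 0.01, 6 with at least a 2-fold difference, 1 with close arrays averaged (newborn skin is then 1 array) and 4 to 13 with 1 array left out. The strain count of 1 became 7 with array weights, 2 with epithelial centring and 2 with only the cultures in the fit. With 1 array left out it was 1 to 2, and the cause was not tested. Over all probe sets the epithelial centring gave 888 higher and 503 lower between strains. No such count was made for the other settings. The replicate numbers gave no sign of pairing: deviations of same-numbered arrays correlated at −0.28 to 0.20, and those of other pairs at −0.26 to 0.29. The check cannot exclude pairing, since the deviations of 2 newborn arrays mirror each other by construction. The replicate block gave 13 calls against newborn skin, 21 against 30-day skin, 10 between ages and 1 between strains.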
